A study of Mus musculus with 16 samples.

Results

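A set of 983 CpG-rich regions that were heavily methylated in mouse fibroblasts and had lost methylation by day 12 of chemical reprogramming was followed through the time course and into induced pluripotent stem cells (iPSCs). The assay was reduced representation bisulfite sequencing (RRBS), in which genomic DNA is cut with MspI and unmethylated cytosines are converted and read as thymine. A region is a tile of 1000 bases with at least 3 cytosine positions (sites) that each of the 16 libraries covered 10 times or more, and its level is the percent of reads called methylated over those sites. Of the 92383 such tiles on chromosomes 1 to 19, 9254 held at least 20 distinct CpGs in the deposited lists and are called CpG-rich here. Of these, 1056 were at 80% or more in both libraries of day 0 (D0), and 983 of them were at 50% or less in at least 1 library of day 12 (D12). Those 983 regions make up 10.6% of the CpG-rich tiles and 93.1% of the CpG-rich tiles that were high at D0. The levels at D0 and D12 chose the regions, so they are given as a description and were not tested.

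The D0 cells were mouse embryonic fibroblasts (MEFs) at passages 1 to 3, taken from embryos that the labels give as 129XOG2 E13.5. The intermediates D2, D4, D6, D8, D10 and D12 were the same kind of fibroblast kept in reprogramming medium for that number of days. The iPSCs carry the same strain label and were grown on feeder cells in mouse embryonic stem cell medium with LIF at 1000 units per mL, the GSK3 inhibitor CHIR99021 at 3 µM and the MEK inhibitor PD0325901 at 0.2 µM. The labels leave unstated which culture or day gave rise to the iPSCs, and removal of the feeder cells before extraction is not described in the sources used here. There were 2 libraries in each of the 8 groups, and nothing in the labels says that they came from separate cultures, so the p-values speak only of the spread between libraries, which may be technical.

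A library listed from 1480222 to 2516218 sites with a median coverage of 18 to 27 reads, and 873038 sites were common to all of them. The median region rested on 18 common sites and on 731 reads in a library, and the shallowest on 30 reads. Sites within a region share reads, and reads are not independent molecules, since the libraries carry no molecular identifiers. The regions held a median of 24 distinct CpGs and at most 65. A bulk library gives 1 level per site, so a level between 0 and 100% does not tell a mixture of methylated and unmethylated cells from partial methylation within each cell.

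Most CpG-rich sequence in mammals, above all the CpG islands at promoters, is kept free of methylation in nearly all cell types. A minority of such regions is methylated in somatic cells, among them promoters of genes that act only in germ cells, where DNMT3B and the maintenance enzyme DNMT1 hold the mark and promoter methylation goes together with silence. Methylation can be lost by dilution through replication when maintenance is weak or by oxidation through TET enzymes, and it is written anew by DNMT3A and DNMT3B.

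Few promoters were matched in the regions. RefSeq promoter sequences, each running from 250 bases before to 50 bases after a gene's start, were laid on the tiles by the spacing of their CpGs, because no annotation of the build of the files (GRCm39) was used here. A match needed at least 11 CpGs of the promoter to coincide with listed CpGs, and no other listed CpG inside the promoter's span. A promoter is shorter than a tile, so this favours tiles with dense and fully listed CpGs. A promoter in a region or another CpG-rich tile can therefore go unmatched. A promoter was matched in 9 of the 983 regions (0.916%) and in 1941 of the 9254 CpG-rich tiles (20.97%). The counts depend on this minimum, which was chosen after the data were seen: at 8 CpGs 19 regions and 2303 CpG-rich tiles were matched, and at 16 CpGs 5 regions and 1269 tiles. With the spacings mirrored at the minimum of 11, which should match by chance alone, 0 of the regions and 17 of the CpG-rich tiles were matched. The genes were Slc25a31, Fkbp6, Spata22, Zglp1, Ece1, Prr23a1, Gm15455, Gm43915 and Gm38699. Of a list of 36 germline genes, 3 had a matched CpG-rich tile and 2 of these, Fkbp6 and Slc25a31, were among the regions. Of 22 pluripotency genes none had a match, and of the matched genes of the imprinted list (3 of 25) and the fibroblast list (2 of 18) 0 were among the regions. The promoters of 3 genes with known roles in germ cells and with common sites inside the promoter itself are printed here, 5′ to 3′ on the gene's strand, from RefSeq on GRCm38.p6. Capitals mark the CpGs of the sequence that the deposited tables list.
Slc25a31: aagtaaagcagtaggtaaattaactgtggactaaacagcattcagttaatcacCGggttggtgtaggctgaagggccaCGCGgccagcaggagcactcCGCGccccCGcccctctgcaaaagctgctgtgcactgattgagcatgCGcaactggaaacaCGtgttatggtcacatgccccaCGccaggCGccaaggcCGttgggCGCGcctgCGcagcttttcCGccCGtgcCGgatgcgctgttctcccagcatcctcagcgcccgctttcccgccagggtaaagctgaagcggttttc
Fkbp6: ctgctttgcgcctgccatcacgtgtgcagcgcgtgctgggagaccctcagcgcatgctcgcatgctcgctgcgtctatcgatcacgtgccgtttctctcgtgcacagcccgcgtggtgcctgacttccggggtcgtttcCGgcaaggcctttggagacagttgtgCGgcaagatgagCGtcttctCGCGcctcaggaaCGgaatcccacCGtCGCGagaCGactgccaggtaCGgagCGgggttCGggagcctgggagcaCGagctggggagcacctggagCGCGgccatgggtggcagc
Zglp1: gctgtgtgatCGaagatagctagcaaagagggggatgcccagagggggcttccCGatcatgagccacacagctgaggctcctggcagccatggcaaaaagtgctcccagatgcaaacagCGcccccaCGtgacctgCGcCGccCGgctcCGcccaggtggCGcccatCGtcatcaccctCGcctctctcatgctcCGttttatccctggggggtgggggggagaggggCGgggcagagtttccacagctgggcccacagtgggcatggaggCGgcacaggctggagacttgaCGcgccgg

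Slc25a31 encodes an ADP/ATP carrier of the mitochondria of male germ cells. Its region, chromosome 3 from 40663001 to 40664000, has 8 common sites that all lie inside the printed promoter, at positions -152 to -53 from the start, with 136 to 658 reads per library. The level was 89.8 and 86.2% at D0, 89.0 and 86.0% at D2, 79.7 and 86.9% at D4, 89.3 and 77.2% at D6, 67.2 and 48.8% at D8, 52.5 and 53.5% at D10, 40.5 and 10.98% at D12, and 39.04 and 36.8% in iPSCs. All libraries up to D6 lay above all later ones, the D12 replicates lay far apart, and both iPSC libraries were below both D10 libraries. The iPSC mean was 37.9% ± 1.61 (SD, n = 2) against 87.5% ± 2.10 at D2, a fall of 49.6 points (edgeR quasi-likelihood test with Benjamini-Hochberg adjustment, adjusted p = 0.00611). The difference from D10, -15.1 points, did not pass the edgeR test (adjusted p = 0.253).

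Fkbp6, a member of the FKBP family needed for meiosis in the male and for the piRNA pathway, had the promoter with the deepest cover. Its region, chromosome 5 from 135378001 to 135379000, holds 48 common sites, of which 31 at 16 CpGs lie in the printed sequence, at positions -111 to 33, with 820 to 2778 reads per library. Over these promoter sites the level was 91.7 and 93.8% at D0, 90.9 and 92.0% at D2, 90.8 and 91.3% at D4, 91.7 and 90.7% at D6, 87.1 and 74.2% at D8, 69.2 and 70.4% at D10, 24.6 and 29.2% at D12, and 60.9 and 69.5% in the iPSC libraries. The promoter stayed at 90.7% or more through D6 and was lower at each later day, and the iPSC libraries lay well above D12 and below D6. Over the whole region the iPSC level was 26.2 points below D2 (edgeR with Benjamini-Hochberg adjustment, adjusted p = 0.0002). The fall of 11.2 points from D6 to D8 passed the edgeR test (adjusted p = 0.0101), but without D8 replicate 2 the difference was -7.12 points and did not pass (adjusted p = 0.0652). Within the promoter the iPSC level, over the pooled reads of both libraries, was 75.7% at position 33, 81.7% at position 31 and 49.6% at position -85. The pooled D0 levels at these 3 positions were 96.8, 93.6 and 92.6%.

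Zglp1 encodes a GATA-like zinc finger protein that acts in germ cells. Its region, chromosome 9 from 20978001 to 20979000, rests on only 4 sites at 2 CpGs, at positions -240 and -197, with 80 to 287 reads per library. The level was 96.6 and 93.9% at D0, 89.4 and 90.4% at D2, 94.4 and 94.5% at D4, 95.9 and 89.5% at D6, 64.5 and 54.1% at D8, 42.6 and 25.3% at D10, 18.8 and 22.1% at D12, and 23.4 and 34.6% in the iPSC libraries. The D8 libraries were below all earlier ones, and the iPSC libraries overlapped those of D10. The iPSC level was 61.0 points below D2 (edgeR with Benjamini-Hochberg adjustment, adjusted p = 0.000232), and the step from D6 to D8 was a fall of 33.4 points (adjusted p = 0.00292).

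The other 6 promoter regions differed among themselves in iPSCs. Gm15455, a predicted gene, had 6 sites inside its promoter and fell by 60.4 points from D2 to an iPSC level of 21.4 and 30.2% (edgeR with Benjamini-Hochberg adjustment, adjusted p = 0.000141). For Spata22, which acts in meiotic recombination, for the endothelin-converting enzyme Ece1, and for Gm43915 and Gm38699, all common sites of the region lay outside the printed span of the promoter, and for Prr23a1 all but 1 did, so their levels describe the neighbourhood of the promoter. The region of Spata22 was at 73.0 and 82.0% in iPSCs against 82.2 and 82.7% at D2, and the difference of -4.98 points did not pass the edgeR test (adjusted p = 0.508). The region of Ece1 was at 67.0 and 68.5% in iPSCs after 8.80 and 7.14% at D12, and its fall of 23.6 points from D2 passed the edgeR test (adjusted p = 0.000161). The regions of Gm43915, Gm38699 and Prr23a1 were at 81.5 and 85.3%, 79.4 and 80.4%, and 78.0 and 72.0% in iPSCs. Their differences from D2, -6.30, -5.54 and -3.77 points, did not pass the edgeR test (adjusted p = 0.28, 0.0986 and 0.573). As a description of sequence, the E-box letters CACGTG, which read the same on both strands, were in the promoter windows of Ece1, Fkbp6, Slc25a31 and Zglp1, 4 of the 9, and in 7.15% of 32851 promoters of the same length. The letters GCGGGA, on either strand, were in 5 of the 9 and in 20.0% of all promoters. Both sets of letters contain a CpG, and a promoter needed at least 11 CpGs to be matched. All promoters include those with few CpGs, so these shares are not like for like and show no enrichment.

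Over all 983 regions, the median level stayed near its starting value until D4, was lower at D6 and lower still at D8, D10 and D12, and was high again in iPSCs without reaching the D2 level. The median of the regions was 86.9 and 87.0% in the D0 libraries, 85.3 and 85.2% at D2, 85.8 and 86.2% at D4, and 78.2 and 78.4% at D6. It was 63.5 and 62.1% at D8, 54.7 and 54.9% at D10, 33.3 and 33.3% at D12, and 74.0 and 73.7% in the iPSC libraries. The replicates of each group lay close together in this median, and from D4 to D12 no group overlapped the next. The mean of the library medians at D10, 54.8% ± 0.180 (SD, n = 2), was 64.3% of the D2 value, and that of iPSCs, 73.9% ± 0.194, was 86.7% of it. Single regions agreed less well than the median, with a median absolute difference between replicates of 1.34 points at D0, 5.23 at D8, 5.37 at D12 and 3.72 in iPSCs.

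**Figure D1:**
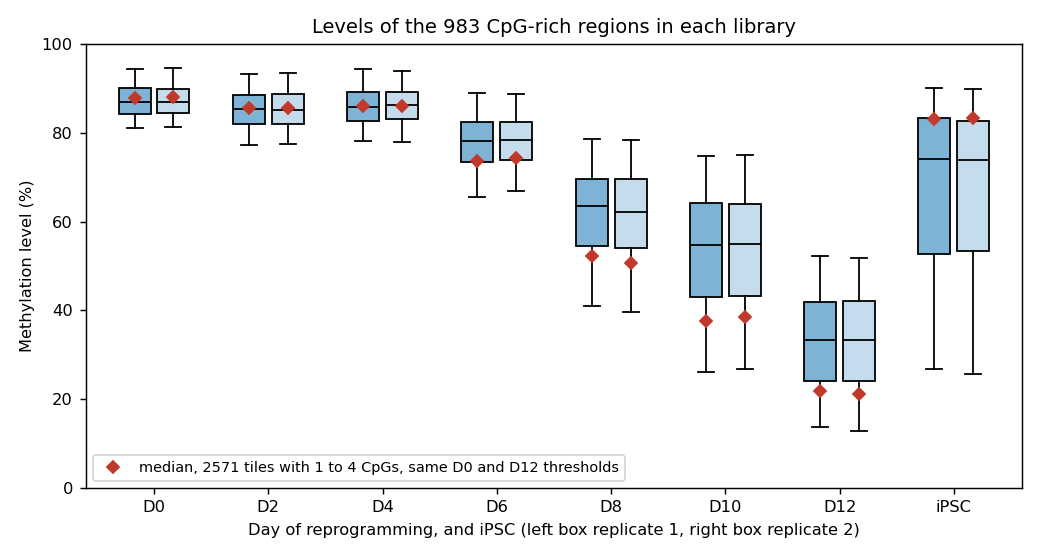
Methylation level (%) of the 983 CpG-rich regions in each of the 16 libraries, with the box from the 25th to the 75th percentile, the line at the median and whiskers from the 5th to the 95th percentile over regions. Red diamonds are medians of 2571 tiles with 1 to 4 CpGs chosen by the same D0 and D12 thresholds, which lie lower at D8 to D12 (51.4% at D8) and higher in iPSCs (83.3%) than those of the CpG-rich regions.

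Tiles that passed the same thresholds at D0 and D12 but held fewer CpGs serve as a comparison. In the tiles with 1 to 4 CpGs the median at D10 was 38.0% ± 0.558, or 44.4% of D2, and in iPSCs it was 83.3% ± 0.0990, or 97.3% of D2. In the tiles with 10 to 19 CpGs it was 49.6% ± 0.0999 at D10 and 79.4% ± 0.0225 in iPSCs, 58.6% and 93.8% of D2. Along this row of CpG counts, and on to the CpG-rich regions, the level at D10 was higher and the level in iPSCs lower the more CpGs a tile held. The difference between these sets of tiles was not tested, since tiles are not replicates.

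The first question the course addresses is when methylation left these regions. Each step was tested by edgeR across all 94337 tiles, and a tile counted as changed at a Benjamini-Hochberg adjusted p below 0.05 together with a difference in group means of 10 points or more. From D2 to D4 no region was called lower or higher, against 0% and 0.00106% of all tiles. At an unadjusted edgeR p under 0.05 and with the same minimum of 10 points, 2 regions were lower and 2 higher, where 654 and 2021 of the 94337 tiles were. A quasi-binomial model called 0 regions, and 12 tiles lower and 11 higher in all. From D4 to D6, 107 regions (10.9%) fell, against 6.69% of all tiles. From D6 to D8, 639 regions (65.0%) fell, against 39.1% of all tiles, and from D8 to D10, 129 (13.1%) fell, against 16.6%. No region was called higher in any of these steps, where 0.0127%, 0.396% and 0.0742% of all tiles were. The median of the regions was 85.2% at D2 and 86.0% at D4, against 62.7 and 63.7% over all tiles. Rises of 10 points from D2 to D4 or from D4 to D6 thus had little room in the regions.

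Since tiles of any starting level are in that background, the same steps were set beside the tiles with fewer CpGs that met the D0 and D12 thresholds. From D6 to D8, 55.7% of the tiles with 1 to 4 CpGs, 61.1% of those with 5 to 9 and 61.4% of those with 10 to 19 fell, close to the 65.0% of the CpG-rich regions. From D4 to D6 the shares were 17.04, 16.2 and 15.2%, above the 10.9% of the CpG-rich regions. The tiles with fewer CpGs rested on fewer common sites, with medians of 4, 8 and 12 against 18, so the shares called are not at equal depth. The step from D6 to D8 was the first called fall for 559 regions (56.9%), against 35.2% of all tiles. That from D4 to D6 was the first for 107 (10.9%, against 6.69% of all tiles) and that from D8 to D10 for 25 (2.54%, against 7.82%). In none of these steps did 292 regions pass the test (29.7%, against 50.3% of all tiles). The rule chose regions that fell between D0 and D12, while 29.7 and 29.5% of all tiles were at 50% or less in the D0 libraries. The shares of first falls are thus not like for like.

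The calls depended on how many libraries carried the step. Against 107 falls from D4 to D6 with all libraries, 1 was called without D4 replicate 1, 1 without D4 replicate 2, 0 without D6 replicate 1 and 1 without D6 replicate 2. Over all tiles the 6308 falls of this step became 12, 4, 5 and 6 in the same order, so nearly all calls of the step were lost over all tiles too. With only the 4 libraries of D4 and D6 in the edgeR fit 0 of the regions and 0 of all tiles were called. Without D6 replicate 2, 423 regions were called lower and 2 higher from D6 to D8, and over all tiles the 36916 falls became 19446. The 129 falls from D8 to D10 became 45 and 74 without D8 replicate 1 and 2, and 56 and 59 without D10 replicate 1 and 2, with 1 region called higher in the last case. Over all tiles the 15628 falls of that step became 5711, 10538, 7325 and 9404. By the levels alone, both D6 libraries were below both D4 libraries in 823 regions (83.7%, against 66.4% of all tiles). Both D8 libraries were below both D6 libraries in 894 (90.9%, against 68.3%), and both D10 libraries were below both D8 libraries in 582 (59.2%, against 57.9%). These shares are not like for like either, because the regions were chosen to be high at D0 and lower at D12. From D2 to D4 such separation was seen downward in 99 regions (10.1%, against 12.8% of all tiles) and upward in 245 (24.9%, against 25.9%), near the background in both directions. Upward separation was seen in 3 regions from D4 to D6, against 2.55% of all tiles, in 0 from D6 to D8, against 4.87%, and in 31 from D8 to D10 (3.15%, against 3%).

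The 5 regions with the largest called falls from D4 to D6 lay on chromosomes 7, 14, 10, 12 and 17, with falls of 31.7, 30.6, 24.4, 22.8 and 22.5 points (edgeR with Benjamini-Hochberg adjustment, adjusted p = 0.0283, 0.0193, 0.0208, 0.0233 and 0.0332). These calls were each lost when any 1 library of D4 or D6 was left out (edgeR adjusted p between 0.062 and 0.139). The region on chromosome 7 from 79975001 to 79976000, with 21 CpGs, was at 89.2 and 91.6% at D0, 67.7 and 69.7% at D2, 63.9 and 70.2% at D4, 37.8 and 32.9% at D6, 23.4 and 24.2% at D8, 26.0 and 27.5% at D10, 32.7 and 15.8% at D12, and 65.6 and 64.6% in iPSCs. It was already lower at D2 than at D0, was low from D8 to D12 with replicates far apart at D12, and was higher again in iPSCs. The region on chromosome 10 from 127426001 to 127427000, with 20 CpGs, was at 77.4 and 76.0% at D4, 54.0 and 50.7% at D6, 36.2 and 35.5% at D8, 16.9 and 15.6% at D10, 5.48 and 7.89% at D12, and 30.0 and 28.6% in iPSCs. Its libraries did not overlap between any of these neighbouring days, and it was the 1 of the 5 that stayed below 50% in iPSCs.

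At the level of single sites the fall passed through intermediate values. The regions hold 18645 common sites, of which 82.99 and 82.6% were at 80% or more in the D0 libraries. That share was 58.8 and 59.7% at D6, 24.9 and 23.7% at D8, 18.7 and 17.7% at D10 and 1.79 and 1.69% at D12. Sites at 20% or less made up 4.54 and 4.61% at D0, 6.13 and 6.34% at D8, 12.1 and 11.98% at D10 and 29.2 and 28.6% at D12. At D8 and at D12 about the same share of sites, 69.0 and 69.9% at D8 and 69.0 and 69.7% at D12, lay between 20 and 80%. In iPSCs 44.6 and 43.8% of the sites were again at 80% or more, and 10.5 and 10.6% were at 20% or less.

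The second question is whether the regions regained methylation in iPSCs. A region counts as kept when both iPSC libraries were at 80% or more, as lost when both were at 50% or less, and as between otherwise. Of the 983 regions 281 (28.6%) were kept, 520 (52.9%) were between and 182 (18.5%) were lost, and only 13 (1.32%) were at 20% or less in both libraries. The replicates put no region in opposite classes. They differed in class across the upper limit for 69 and 57 regions and across the lower one for 40 and 35. In the mean of the libraries 306 regions lay within 5 points of the upper limit and 91 within 5 points of the lower, so the classes are ranges of a continuous level, not separate groups.

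**Figure D2:**
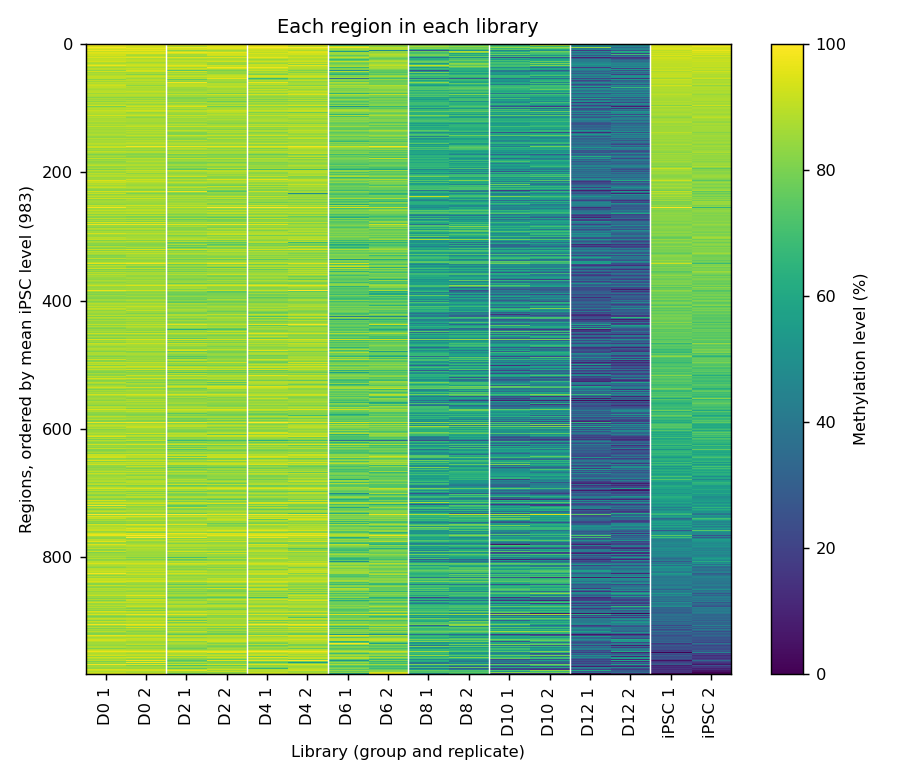
Methylation level (%) of each of the 983 regions (rows, ordered by their mean iPSC level) in each of the 16 libraries (columns, by group and replicate). The row order follows the iPSC columns, and the D0 to D12 columns show little of that order, with high levels up to D6 and low levels at D12 from top to bottom.

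The iPSC libraries were compared with D2, since D0 was used to choose the regions. In iPSCs 446 regions (45.4%) were lower than at D2 by edgeR, against 8.05% of all tiles, and no region was called higher, against 6.28%. At an unadjusted edgeR p under 0.05, 0 regions were higher by at least 10 points, where 10325 of all tiles were. By the quasi-binomial model 0 regions and 7499 of all tiles were called higher. The regions were chosen to be high at D0, and their median at D2 was 85.2%, against 62.7% over all tiles. A rise of 10 points thus had little room in the regions, so these counts cannot decide whether rises were rarer there. All tiles also include tiles too low at D2 to fall by 10 points, so the shares called lower are not like for like. With tiles that start 500 bases later, 411 regions were called lower and 2 higher. The median difference over the regions was -11.2 points, and over all tiles it was 0.371. Of the tiles that met the same D0 and D12 thresholds, 9.76% of those with 1 to 4 CpGs, 16.4% of those with 5 to 9 and 26.6% of those with 10 to 19 were called lower. In the same order 1.59, 0.622 and 0.343% were called higher. These sets rested on a median of 156, 298 and 434 reads per iPSC library, against 612 for the regions. A change is easier to call with more reads, so the shares called do not isolate the number of CpGs. Both iPSC libraries were below both D2 libraries in 712 regions (72.4%, against 28.9% of all tiles), and above both in 82 (8.34%, against 31.8%).

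Against D10, 605 regions (61.5%) were higher in iPSCs by edgeR, against 75.8% of all tiles, and 149 (15.2%) were lower, against 1.78% of all tiles. The tiles with the same thresholds and 1 to 4 CpGs were lower in 0.739% and those with 10 to 19 CpGs in 6.43%. Both of these sets rested on fewer reads than the regions and were lower at D10, with medians of 38.0 and 49.6% against 54.8%. Over all tiles the D10 median was 24.2%. All tiles thus had less room to fall and more room to rise, so the shares against D10 are not like for like. Of the 149 lower regions 120 were in the lost class and 29 in the between class. Both iPSC libraries were above both D10 libraries in 678 regions (69.0%, against 82.7% of all tiles), and below both in 187 (19.02%, against 5.06%). As a description, since D12 chose the regions, 825 regions (83.9%, against 83.8% of all tiles) had both iPSC libraries above both D12 libraries, 59 of them in the lost class. In 61 regions (6.21%, against 5.75% of all tiles) both iPSC libraries were below both D12 libraries. A level below both D12 libraries of a region is below the D12 threshold, which is also the limit of the lost class. All 61 were therefore in the lost class by construction.

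**Figure D3:**
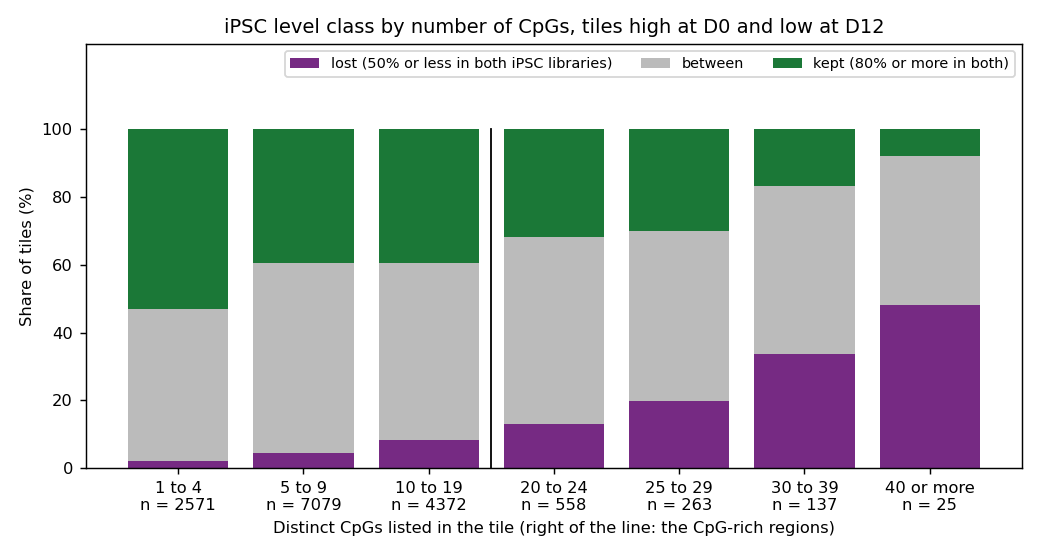
Share (%) of tiles that were kept, between or lost in iPSCs, by the number of distinct CpGs listed in the tile, for tiles at 80% or more at D0 and at 50% or less in at least 1 D12 library. The lost share is 2.02% in the tiles with 1 to 4 CpGs, 12.9% in the regions with 20 to 24 and 48.0% in those with 40 or more.

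The number of CpGs in a region went with its level in iPSCs. Of the 558 regions with 20 to 24 CpGs 31.7% were kept and 12.9% lost, of the 263 with 25 to 29 CpGs 30.0 and 19.8%, of the 137 with 30 to 39 CpGs 16.8 and 33.6%, and of the 25 with 40 or more 8.00 and 48.0%. In the last group the median was 61.8% ± 1.49 at D10 and 45.5% ± 2.79 in iPSCs, so it was lower in iPSCs than at D10, while the median of the regions with 20 to 24 CpGs was 53.6% ± 0.481 at D10 and 76.0% ± 0.461 in iPSCs. Over the 983 regions the number of CpGs correlated with the iPSC level at r = -0.260 (Spearman rho = -0.192) and with the D10 level at r = 0.137. These are descriptions over regions that share libraries, and a tile that RRBS covers more fully also has more CpGs listed. The read depth of a region correlated with its iPSC level at r = 0.0451.

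Kept and lost regions had much the same median course up to D10. The median of the kept regions was 79.4 and 79.7% at D6, 65.2 and 64.5% at D8, 58.9 and 59.1% at D10 and 37.4 and 38.4% at D12. The median of the lost regions was 78.3 and 78.9% at D6, 65.4 and 64.2% at D8, 59.2 and 59.1% at D10 and 34.9 and 35.0% at D12. In iPSCs they were 85.7 and 85.7% for the kept and 34.2 and 35.8% for the lost regions. The medians of the 2 classes thus lay within 1.26 points of each other in each library up to D10, and 2.54 and 3.36 points apart at D12. In iPSCs they were 51.5 and 49.8 points apart, a difference that the classes fix by their definition. Below the median the classes differed at D10, where 34.6 and 31.3% of the lost regions were at 50% or less, against 22.4 and 22.8% of the kept. The median of the regions between was lower than both class medians at D10, at 50.4% ± 0.0232. Over the regions the D10 level correlated with the iPSC level at r = 0.0271 (rho = 0.0802), while the D8 and D10 levels correlated at r = 0.825.

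**Figure D4:**
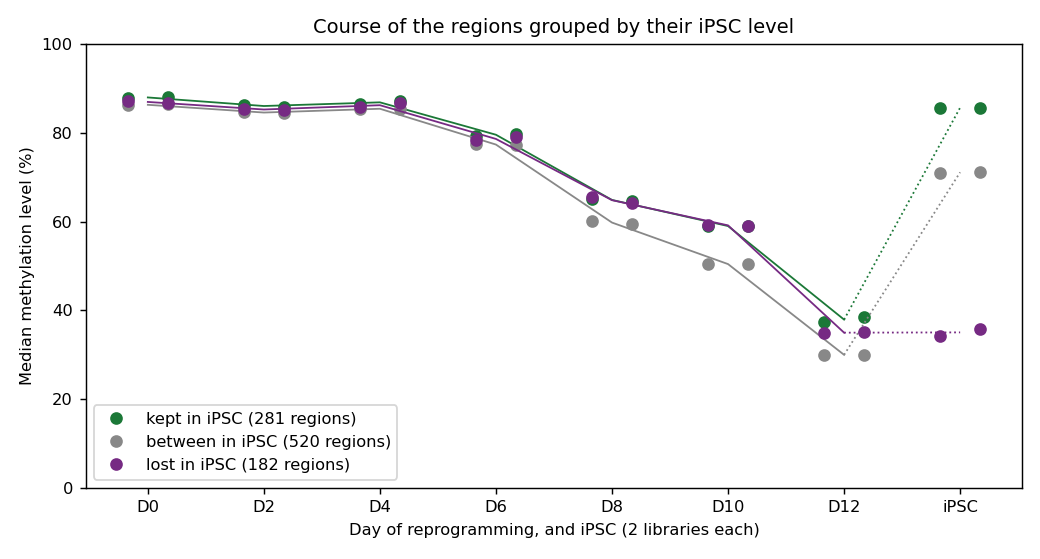
Median methylation level (%) of the regions kept (281), between (520) or lost (182) in iPSCs, with 1 point per library and lines through the group means, dotted from D12 to iPSC because the labels leave the culture of origin of the iPSCs unstated. The medians of kept and lost regions lie together up to D10 (58.9 and 59.2% in replicate 1) and apart in iPSCs (85.7 and 34.2%).

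Loss in iPSCs was partial at most sites. In the lost regions 68.2 and 69.0% of the sites were between 20 and 80% in the iPSC libraries, 28.9 and 29.1% were at 20% or less and 2.99 and 1.97% at 80% or more. Tiles next to a lost region that were not themselves among the 983 were also lower in iPSCs. Over 74 such pairs the neighbours, with a median of 13 CpGs, were at a median of 79.9 and 78.5% at D2 and 48.3 and 45.8% in iPSCs, where the lost regions were at 32.9 and 37.5%. Over 125 pairs with a kept region the neighbours, with a median of 7 CpGs, were at 76.2 and 76.9% at D2 and 75.1 and 75.7% in iPSCs. Of 22 pairs of adjacent regions within the set, 17 were in the same class and 0 joined a kept with a lost region. With 28.6% of all regions kept, 52.9% between and 18.5% lost, some pairs would share a class by chance. The pairs are few and were not tested. The regions were spread over all 19 autosomes, from 20 on chromosome 16 to 92 on chromosome 4, and made up between 7.21% (chromosome 2) and 14.4% (chromosome 3) of the CpG-rich tiles of a chromosome.

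The largest called fall in iPSCs against D2 was on chromosome 12, from 107882001 to 107883000, a region with 62 CpGs, 39 common sites and 736 to 3300 reads per library. Its level was 93.9 and 93.4% at D0, 92.2 and 93.0% at D2, 93.0 and 93.7% at D4, 91.3 and 87.8% at D6, 86.8 and 81.0% at D8, 84.8 and 78.8% at D10, 49.8 and 56.8% at D12, and 12.8 and 9.78% in iPSCs. It was still at 78.8% or more in both D10 libraries, was just inside the D12 threshold, and was lowest in iPSCs, with no overlap of D10, D12 and iPSC. The fall from D2 was 81.3 points and that from D10 was 70.5 points (edgeR with Benjamini-Hochberg adjustment, adjusted p = 5.86e-06 and 1.4e-06). In iPSCs its sites had a median of 11.1% and ranged from 0 to 32%, and 34 of 39 were at 20% or less, against 1 of 39 at D12.

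The next in rank, on chromosome 10 from 80442001 to 80443000 with 41 CpGs, took another course. It was at 90.04 and 92.0% at D2, 88.5 and 90.9% at D4, 74.4 and 76.8% at D6, 56.1 and 42.3% at D8, 21.6 and 15.5% at D10, 20.2 and 17.2% at D12, and 11.7 and 11.8% in iPSCs. Most of its methylation was gone by D10, and the D10 and D12 libraries overlapped. It fell in each step from D4 to D10, by 14.1, 26.4 and 30.6 points (edgeR with Benjamini-Hochberg adjustment, adjusted p = 0.0318, 0.00405 and 0.00603), and the iPSC level was 79.3 points below D2 (adjusted p = 7.51e-06). The call from D4 to D6 was lost without any 1 library of D4 or D6 (edgeR adjusted p between 0.0876 and 0.153). The other 3 of the 5 largest falls, on chromosome 5 from 109698001 to 109699000, chromosome 7 from 125891001 to 125892000 and chromosome 10 from 42073001 to 42074000, were at 61.1% ± 9.49, 66.2% ± 2.29 and 76.7% ± 4.82 (SD, n = 2) at D10 and at 9.43% ± 6.87, 17.1% ± 4.77 and 22.8% ± 3.83 in iPSCs. Their edgeR adjusted p against D2 was 3.16e-05, 1.76e-05 and 7.06e-05.

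**Figure D5:**
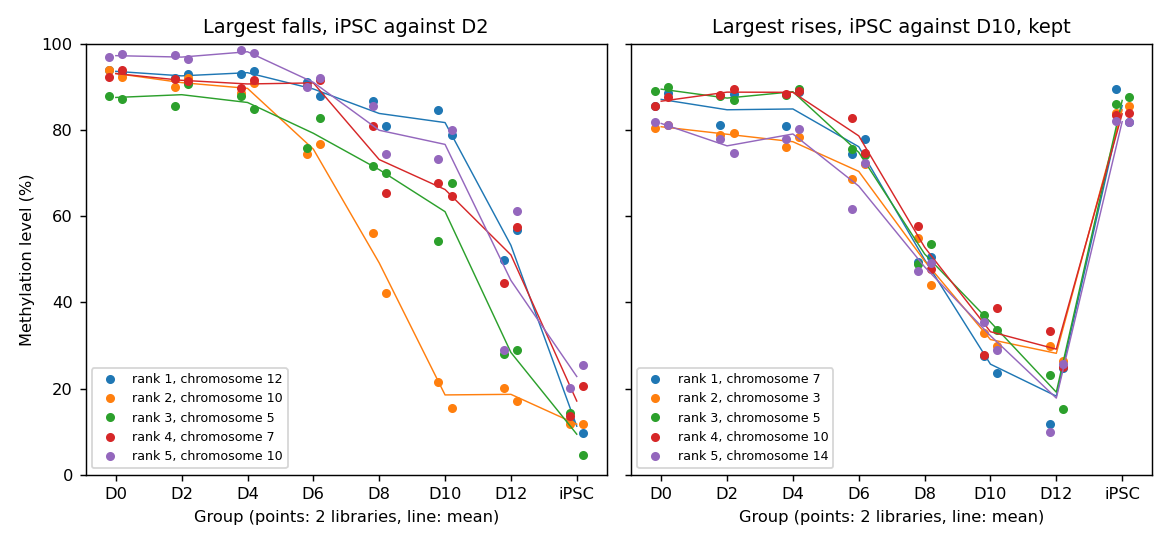
Methylation level (%) in the 8 groups of the 5 regions with the largest called falls in iPSCs against D2 (left) and of the 5 kept regions with the largest called rises in iPSCs against D10 (right), with points for the 2 libraries and lines through their means. On the left 4 of the 5 are above 50% at D10 and all are at 25.5% or lower in iPSCs, and on the right all are at 38.7% or lower at D10 and at 81.9% or higher in iPSCs.

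The region with the most CpGs of all, 65, lies on chromosome 7 from 6135001 to 6136000 and has 58 common sites with 1587 to 4314 reads per library. Its level was 80.9 and 81.3% at D0, 73.8 and 74.2% at D2, 80.5 and 75.7% at D4, 69.8 and 69.7% at D6, 61.6 and 61.8% at D8, 65.4 and 65.9% at D10, 41.6 and 37.0% at D12, and 15.6 and 4.31% in iPSCs. It moved little from D6 to D10, and both iPSC libraries were below both D12 libraries. The fall against D2 was 64.0 points (edgeR with Benjamini-Hochberg adjustment, adjusted p = 9.33e-05), and 53 of its 58 sites were at 20% or less in iPSCs. The region next in CpG number after these, on chromosome 17 from 23795001 to 23796000 with 53 CpGs, was at 62.9 and 62.5% at D10, 44.7 and 35.2% at D12, and 34.2 and 45.6% in iPSCs, where the D12 and iPSC libraries overlapped. It was 51.3 points below D2 in iPSCs (adjusted p = 6.19e-05 by edgeR). Its fall of 22.8 points against D10 passed the edgeR test (adjusted p = 0.00511), but without iPSC replicate 1 the difference was -17.1 points and did not pass (adjusted p = 0.053).

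Kept regions included some with low levels at D10. Since they were chosen for high iPSC levels and then for the size of the rise, no test is given for them. The largest called rise against D10 was on chromosome 7 from 27216001 to 27217000, with 23 CpGs, 10 common sites and 170 to 530 reads per library. It was at 85.7 and 88.6% at D0, 81.2 and 88.3% at D2, 81.1 and 88.8% at D4, 74.4 and 77.9% at D6, 49.3 and 50.6% at D8, 27.6 and 23.7% at D10, 11.8 and 24.7% at D12, and 89.5 and 82.0% in the iPSC libraries. The iPSC libraries overlapped those of D0, D2 and D4 and lay far above those of D8 to D12. The difference from D10 was 60.03 points and that from D2 was 0.979 points. The other 4 of the 5 largest rises, on chromosomes 3, 5, 10 and 14, were between 49.7 and 53.3 points, with D10 means of 31.4 to 35.4% and iPSC means of 82.0 to 86.9%.

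Other kept regions were still high at D10, though below their D0 level. The 3 kept regions with the highest D10 level were at 84.1 and 74.9% (chromosome 3 from 67331001 to 67332000), at 87.1 and 67.5% (chromosome 13 from 87778001 to 87779000) and at 76.1 and 75% (chromosome 13 from 111891001 to 111892000). Their D10 means were 79.5, 77.3 and 75.6%, against D0 means of 97.4, 97.0 and 89.1%. At D12 their replicates were far apart, at 48.1 and 80.4%, at 62.2 and 29.9%, and at 39.1 and 64.8%, so each met the D12 threshold through 1 library. In iPSCs they were at 97.0 and 97.9%, at 97.1 and 95.2%, and at 84.5 and 86.5%. High levels at D10 were thus seen both in kept regions and in lost ones such as that with 62 CpGs on chromosome 12. Over all regions 841 were at 50% or less in both D12 libraries and 142 in only 1.

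The limits of the choice fell within a continuous range. The 3 regions just inside the D0 limit had their lower D0 library at 80, 80.1 and 80.1%, and were at 34.0 and 35.5%, 53.2 and 54.6%, and 65.9 and 71.6% in iPSCs. The 3 tiles just outside it had their lower D0 library at 79.98, 79.97 and 79.97%, and were at 52.7 and 58.4%, 48.6 and 50.7%, and 75.1 and 68.3% in iPSCs. The 3 regions just inside the D12 limit had their lower D12 library at 49.8, 49.8 and 49.6% and iPSC means below 50%. The 3 just outside had it at 50.4, 50.5 and 50.5%, and were between 85.1 and 92.2% in iPSCs. The 73 CpG-rich tiles that were high at D0 and stayed above 50% in both D12 libraries had a median of 74.5% ± 0.0176 at D10 and 80.5% ± 0.167 in iPSCs.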

How the data were processed

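Genomic DNA of 16 libraries was measured by RRBS. The build was GRCm39, and methylKit, Bowtie2, Bismark 0.23.0 and fastp 0.20.1 were used, per the submitters' processing notes. How reads were trimmed and deduplicated and which mapping settings were used is not given here. The authors' deposited tables give, per the file headers, the coverage as a count of reads at each site and strand, with the percent that read as C or as T. The smallest coverage was 10 reads, so shallower sites are not listed. Coverage times percent gave whole read counts at each site. Both strands were kept as separate sites. A distinct CpG is a position listed on either strand in any library.

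The regions, gene lists and tests were chosen with earlier results of these data known. Levels are summed methylated reads over summed coverage at the 873038 sites common to all libraries. edgeR 4.0.16 (R 4.3.3) fitted methylated and unmethylated counts of all 94337 tiles and 16 libraries together, with an effect per library, a coefficient per group, a common dispersion and quasi-likelihood tests, and p-values were adjusted by Benjamini-Hochberg over all tiles. Tested on simulated data for D6 against D4 (20000 tiles), the fit recovered 26% of falls of 20 points and 97% of falls of 40 points. Only 100 tiles were lowered by each amount, a smaller share than was called in that step of the real data. The spread between libraries was assumed, so recovery in the real steps may differ. The alternatives were site coverage of 20 reads, merged strands, tiles shifted by 500 bases, other CpG and site minimums, a minimum difference of 25 points, a quasi-binomial model, a replicate block, only the compared groups, and leaving out each library.

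Regions named singly have at least 10 common sites, lie outside chromosome 18 and were taken by rank: the 5 largest called falls in iPSC against D2, rises of kept regions against D10 and falls in D6 against D4, the 3 kept regions highest at D10, the 3 with the most CpGs, and those nearest the limits. Regions named by a promoter follow the match described with them. That match stands in for the annotation of the files' build that the plan for the gene lists had assumed. It, its minimum of 11 CpGs and the counts of groups that do not overlap were added after the data were seen. No coordinates were converted between builds.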

Additional observations from a re-analysis of the deposited data

How the results depend on the processing

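The number of regions was 983, with 281 kept, 520 between and 182 lost. With at least 10 distinct CpGs these were 5355, 2010, 2799 and 546, and with at least 30 they were 162, 25, 79 and 58. The median iPSC level was 75.75% at 20 reads per site, 78.7% with at least 10 CpGs, 59.84% with at least 30, 74.28% with at least 10 common sites and 74.39% in shifted tiles, and 73.17 to 74.02% with 1 library left out. The 107 falls from D4 to D6 became 2 at a minimum of 25 points, 163 by the quasi-binomial model, 0 with only the compared groups and 0 to 1 with 1 library left out. The 639 from D6 to D8 became 145 at 25 points, 0 with only the compared groups and 425 to 479 calls with 1 library left out, of which at most 2 were rises. The 129 from D8 to D10 became 21 at 25 points, 229 by the quasi-binomial model, 0 with only the compared groups and 45 to 74 calls with 1 library left out, of which at most 1 was a rise. The 754 calls in iPSC against D10 became 452 at 25 points, and 686 to 703 with 1 library left out. The count in iPSC against D2, 446, stayed within 1.5 times under all alternatives run, 362 to 390 with 1 library left out. The counts over all tiles moved in the same direction. There the falls from D4 to D6 went from 6308 to 764 at 25 points, 12827 by the quasi-binomial model and 0 with only the compared groups. Those from D6 to D8 went from 36916 to 11089 at 25 points and 0 with only the compared groups. Those from D8 to D10 went from 15628 to 2943 at 25 points, 19186 by the quasi-binomial model and 0 with only the compared groups. A higher minimum difference allows fewer calls by construction. The cause of the other moves was not tested. The replicate numbers share only a number (correlations of deviations between -0.0120 and 0.00778), and with a replicate block the counts of calls, in the order of the steps and then iPSC against D2 and D10, were 0, 78, 620, 106, 444 and 749. No call of a named region reversed its direction under the alternatives that fitted the same tile. Reversal was not checked for the other regions. Regions with few reads, down to 30 per library, limit the precision of single levels.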
